A study of Mus musculus with 9 samples.

Results

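Malat1, Neat1, Meg3, H19, Gas5, Snhg1, Snhg3, Snhg8 and Snhg12 are genes whose RNA does its work without being translated. They were picked by symbol from a list drawn up with earlier results of these data known, and all 9 of 9 were found, each on a single row, among the 23309 gene symbols of the table. The table gives their levels in podocytes, the epithelial cells that wrap the capillaries of the kidney glomerulus and hold back protein from the urine. Podocytes were isolated as GFP-positive cells from mice aged 7-8 weeks and labelled wildtype, in which a podocyte-specific Cre switches the mTmG reporter from red to green. All 3 groups share these alleles. The groups were mice given PBS, mice at day 9 after injection of an agent abbreviated ADR, and mice at day 14 after it, with 3 libraries in each. The series' title places them in a study of the transcription factor WT1 and the response to podocyte injury. No label ties a library to its own animal, so the p-values below speak of the scatter among these libraries, which may be technical.

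These genes belong to 3 families. Malat1 and Neat1 are long nuclear RNAs made from neighbouring genes. Malat1 gathers in nuclear speckles, bodies rich in splicing factors, and is among the most abundant nuclear RNAs of most mouse tissues, while Neat1 is the scaffold on which paraspeckles assemble around the proteins Sfpq, Nono and Pspc1. Meg3 and H19 are imprinted RNAs read from the maternal chromosome, next to the paternally read growth genes Dlk1 and Igf2, and both are abundant in the embryo and low in most adult cells. Gas5, Snhg1, Snhg3, Snhg8 and Snhg12 are snoRNA host genes. Their introns release small nucleolar RNAs, many of which guide the methylation or pseudouridylation of ribosomal RNA. The spliced exons are mostly cleared by nonsense-mediated decay during translation. Many host genes start in a stretch of pyrimidines, as the 5′ TOP messenger RNAs of ribosomal proteins do, which ties their translation to growth signals.

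Total RNA was depleted of ribosomal RNA and was not selected for poly(A) tails per the labels' protocols, so nuclear and unspliced RNA could enter the libraries. Levels are FPKM, counts of fragments scaled to transcript length and library size, and can be compared between genes because they are per length. Column totals ran from 572787 to 723288 FPKM, and 8629 to 10474 genes reached 1 FPKM in a library. Relative depth, estimated from the smallest values with PBS replicate 2 set to 1, was 1 to 1.085 with PBS, 0.786 to 0.889 at day 9 and 0.239 to 0.569 at day 14. All 20 podocyte markers in the list used here reached 1 FPKM in 8 libraries and 19 did in ADR_D14 replicate 1. Signs of other kidney cells stood out in 2 libraries. In ADR_D9 replicate 3, 19 of 20 endothelial, 7 of 15 mesangial, 15 of 20 distal tubule, 10 of 20 leukocyte and 5 of 20 proximal tubule markers reached 1 FPKM and exceeded 4 times the highest PBS library. In ADR_D14 replicate 1 the counts were 18, 2, 19, 10 and 18. In ADR_D14 replicates 2 and 3 no such marker of proximal or distal tubule did, and 0 and 2 of 20 endothelial markers did. The summed level of 4 Y-linked transcripts was 53.6 FPKM or more in the PBS libraries, ADR_D9 replicate 1 and ADR_D14 replicate 2 and at most 1.06 FPKM in the other 4 libraries. The part that any of these differences had in the results was not tested except where a value without the library is given.

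The levels of the 9 RNAs spanned the whole range of the table. Malat1 ranked between 4th and 41st of all symbols in 8 libraries and made up 0.298% to 1.53% of the total FPKM there. Snhg1 came next, at rank 404 to 1099, and Snhg3 followed. With PBS, Gas5, Neat1 and Snhg8 came next in that order, at means of 4.12, 3.50 and 2.65 FPKM, and neighbours in the order differed by less than the larger of their SDs. Snhg12 stayed under 1 FPKM in every library, and the PBS means of Meg3 and H19, 0.159 and 0.00443 FPKM, were lower than its 0.582 FPKM. In the plot of levels by library, the day 14 points of Malat1, Snhg1 and Snhg3 stand out upward.

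**Figure D1:**
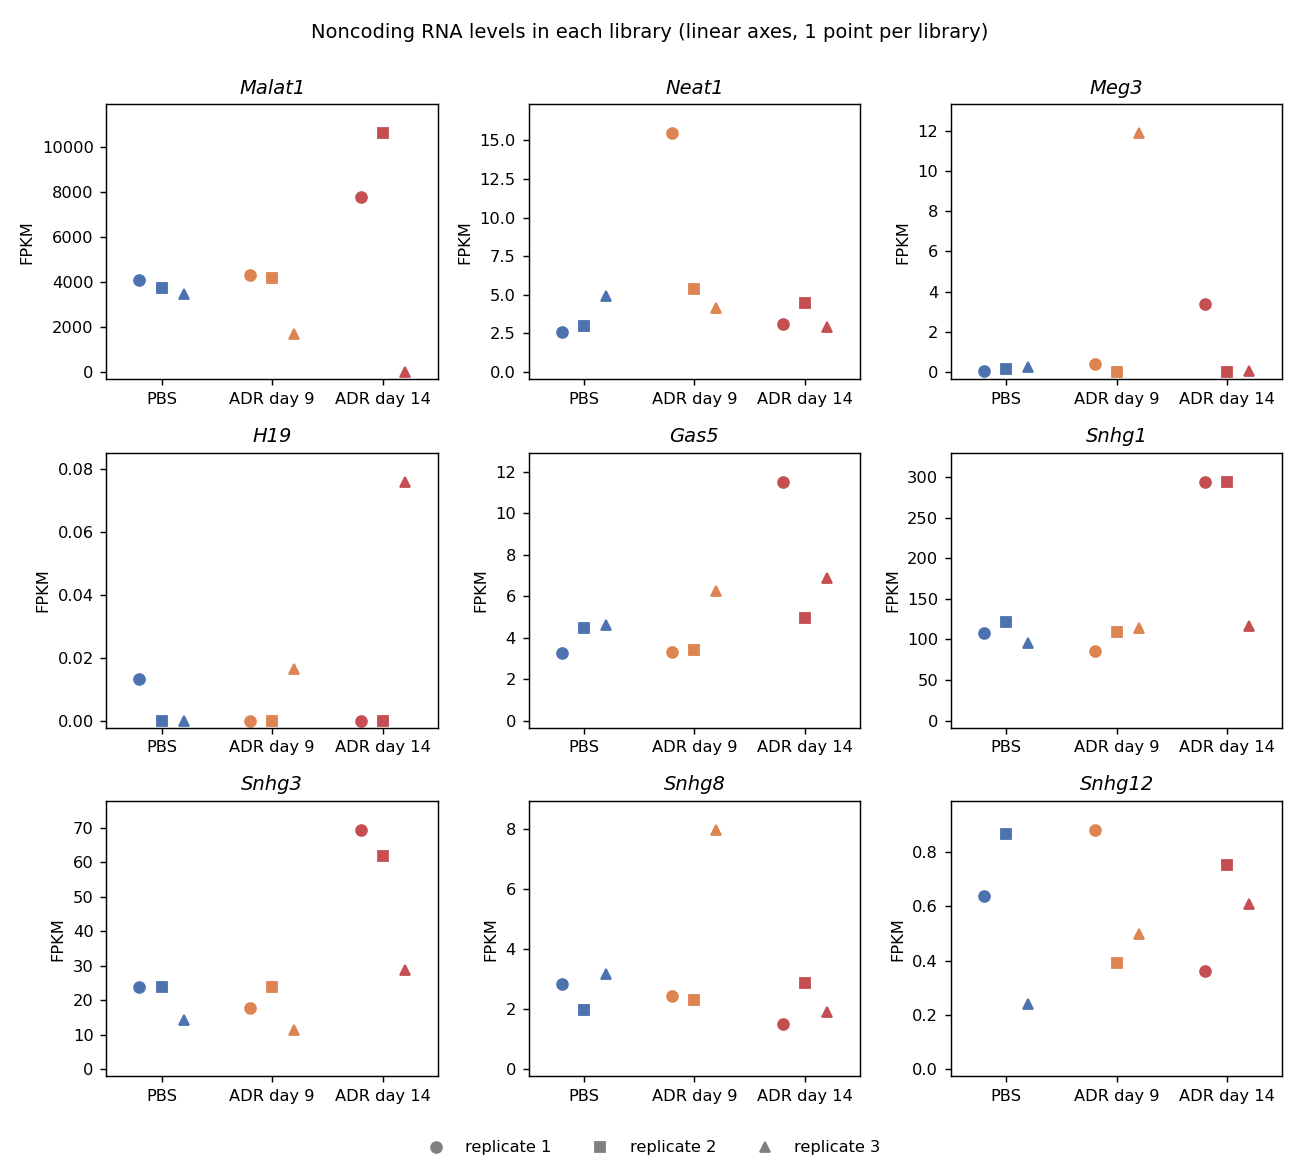
FPKM (y axis, linear) of each of the 9 noncoding RNAs in the 9 libraries, by group (x axis); each point is 1 library and its shape is the replicate number. Snhg3 lay between 28.7 and 69.4 FPKM at day 14, above all 6 other libraries. Meg3 was highest in ADR_D9 replicate 3 at 11.9 FPKM, followed by ADR_D14 replicate 1 at 3.39 FPKM. Malat1 is listed at 0 in ADR_D14 replicate 3.

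The host genes are shown first by what they carry. In the GENCODE M21 annotation, 10 snoRNA genes lie inside Gas5, 8 inside Snhg1, 5 inside Snhg12, 2 inside Snhg3 and 1 inside Snhg8, all on the host's own strand. Below is a snoRNA from each of 4 hosts, taken from the GENCODE M21 transcripts (build GRCm38), to show the product for which these genes are named. Capitals mark the box motifs found by letter search. The C box TGATGA and the D box CTGA belong to the class that holds the methylation guides. The ACA box belongs to the class that holds the pseudouridylation guides. Snord47 lies in Gas5 at chr1:161038082-161038158 on the plus strand. Snord22 lies in Snhg1 at chr19:8725866-8725991 (plus), Snora24 in Snhg8 at chr3:123507937-123508066 (minus) and Snord99 in Snhg12 at chr4:132310691-132310764 (plus).
Snord47: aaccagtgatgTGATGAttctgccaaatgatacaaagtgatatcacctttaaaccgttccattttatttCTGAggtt
Snord22: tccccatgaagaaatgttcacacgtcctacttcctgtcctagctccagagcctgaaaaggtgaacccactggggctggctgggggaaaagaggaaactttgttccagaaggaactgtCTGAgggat
Snora24: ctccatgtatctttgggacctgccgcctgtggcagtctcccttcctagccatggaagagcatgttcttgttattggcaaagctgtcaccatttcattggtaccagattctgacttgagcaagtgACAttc
Snord99: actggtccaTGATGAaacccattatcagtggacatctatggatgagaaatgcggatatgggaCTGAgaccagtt
The C box letters were found in Snord47 and Snord99 and not in Snord22, where only the D box letters matched. The deposited table says little about these products themselves. Of the annotated snoRNA and miRNA genes inside the 9 genes, 11 have a row in the table, and 9 of the 11 are listed at 0 in all 9 libraries. Of the other two, Snora24 had a highest value of 0.000112 FPKM. Mir5117, annotated as a snoRNA gene inside Gas5, was at 289.1, 171.5 and 302.8 FPKM with PBS, 331.2, 323.3 and 518.5 FPKM at day 9, and 1761, 574.8 and 256.8 FPKM at day 14. It was highest in ADR_D14 replicate 1, as Gas5 was, and day 14 overlapped both other groups. Its relative log2 change on the scale used below was 1.51 (SE 0.62, adjusted p = 0.153 by limma) at day 14 against PBS. Over all 114 snoRNA and scaRNA symbols of the table, 75.4% were listed at 0 everywhere. The values of the hosts below are those of the rows named for the host. Whether fragments of the small RNAs entered those rows is not known here. The small RNAs were not analysed beyond these values.

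The start sites of the hosts are printed because 2 of them, Snhg1 and Snhg3, followed a similar pattern over the libraries, at different levels. Another reason is that many host genes start in pyrimidines. Each line is 60 bases before the RefSeq start and 50 bases from it on (build GRCm38.p6, printed along the gene's own strand), and capitals mark the longest unbroken run of C and T that touches the bases from 5 before to 10 after the start.
Gas5 second start, chr1:161035106-161035215 (plus): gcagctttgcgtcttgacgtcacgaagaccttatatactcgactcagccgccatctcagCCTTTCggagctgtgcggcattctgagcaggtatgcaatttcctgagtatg
Snhg1, chr19:8723427-8723536 (plus): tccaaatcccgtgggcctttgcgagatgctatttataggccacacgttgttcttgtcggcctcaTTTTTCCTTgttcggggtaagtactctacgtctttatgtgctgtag
Snhg3, chr4:132353637-132353746 (minus): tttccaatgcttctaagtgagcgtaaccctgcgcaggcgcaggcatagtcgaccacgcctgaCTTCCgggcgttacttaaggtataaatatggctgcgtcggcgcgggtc
Snhg8, chr3:123508287-123508396 (minus): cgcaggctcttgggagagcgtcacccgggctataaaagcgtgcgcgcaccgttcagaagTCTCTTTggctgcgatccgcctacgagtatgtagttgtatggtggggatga
Snhg12, chr4:132308618-132308727 (plus): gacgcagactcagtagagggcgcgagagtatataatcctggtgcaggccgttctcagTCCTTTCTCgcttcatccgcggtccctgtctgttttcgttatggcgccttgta
The run was 9 bases in Snhg1 and Snhg12, 7 in Snhg8, 6 at the second start of Gas5, 5 in Snhg3 and 3 at the other RefSeq start of Gas5. With the start as base 1, the run began only at base 5 in Snhg1 and at base 3 in Snhg3. Neither RNA thus begins in its run by these starts. In Snhg8, Snhg12 and the second start of Gas5 the run spans the start. A run of at least 9 bases was present in 8.09% of 32851 RefSeq windows of the same kind, one of at least 7 in 16.9% and one of at least 5 in 39.3%. Searched on both strands in the 300 bases around the start, the letters TATAAA were in the windows of Snhg1, Snhg3 and Snhg8 and in 13.6% of all windows. The letters CACGTG were in none of the 5 host windows and in 7.15% of all windows. These are letter matches in a window and no statement about a factor. Snhg1 and Snhg3 thus had runs of different length, and Snhg12, with a run as long as that of Snhg1, was too low to be tested.

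Log2 changes come from limma on log2(FPKM + 1), fitted on 9788 genes that reached 1 FPKM in at least 3 libraries, and they understate the change of low genes. Of the 9 RNAs, Malat1, Neat1, Gas5, Snhg1, Snhg3 and Snhg8 passed that filter, and Meg3, H19 and Snhg12 did not. Each change is printed after subtraction of the median gene's change (0.04 at day 9 against PBS, −0.14 at day 14 against PBS and −0.22 at day 14 against day 9), because other scalings move the median of the day 14 comparisons by more than 0.1. The p-values are for the change in the values as deposited, adjusted over all genes by the Benjamini-Hochberg method, and a gene passed where its adjusted p was under 0.05. Since the filter lets through genes that are high in a single group, the counts below describe the 6 tested RNAs and no more.

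At day 9 after ADR, none of the 6 tested RNAs passed limma's test, and each had an adjusted p of 0.9999. Across all genes 0% passed, with 304 genes at an unadjusted p under 0.05, none of them among these 6. Levels at day 9 overlapped those with PBS for all 6, while 13.4% of all genes had no overlap, 6.8% being higher and 6.63% lower. At day 14 against PBS, 0 of 6 passed by limma's adjusted p, while 17.1% of all genes passed and 6.35% passed as higher. An unadjusted p under 0.05 was found for 3 of 6 (Malat1, Snhg1, Snhg3) and for 34.2% of all genes. At day 14 against day 9, 1 of 6 passed (Snhg3, higher), against 15.8% of all genes in either direction and 5.74% as higher, and 3 of 6 (the same RNAs) and 34.4% of all genes had an unadjusted p under 0.05. With the 0 of Malat1 in ADR_D14 replicate 3 taken as missing, day 14 values lay wholly above PBS for 3 RNAs (Malat1, Gas5, Snhg3), where 15.7% of all genes did so and 39.4% had no overlap in either direction. They lay wholly above day 9 for 3 (Malat1, Snhg1, Snhg3), where 13.2% of all genes did so and 37.8% had no overlap in either direction. As deposited, with that 0, Malat1 overlapped both groups. None of the 6 lay wholly below PBS or day 9, as 23.8% and 24.6% of all genes did. The shares of all genes that passed as lower were 10.7% and 10%. The median relative log2 change of the 6 was −0.06 at day 9, 1.0 at day 14 against PBS and 1.10 at day 14 against day 9, where the median of all genes is 0 by construction. Calls against PBS were fragile across the whole table: limma called 0 genes of any kind once a Y-linked term entered the fit (2284 before adjustment, at p under 0.05) and 0 without PBS replicate 2 (2348 before adjustment). Beside these changes, 7 of 20 podocyte markers fell at day 14 against PBS and 11 of 20 against day 9. Their summed level in ADR_D14 replicate 1 was 3772 FPKM against 11730 to 19080 FPKM in the other 8 libraries. Without Cdkn1c, the most abundant of them with PBS, the sums were 2364, 4220 and 2333 FPKM at day 14. With PBS and at day 9 they ran from 7168 to 14150 FPKM, so all day 14 libraries were low. In bulk samples, fewer cells of a type and less RNA per cell cannot be told apart. The comparisons share libraries, so they are set side by side and not counted as separate evidence.

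**Figure D2:**
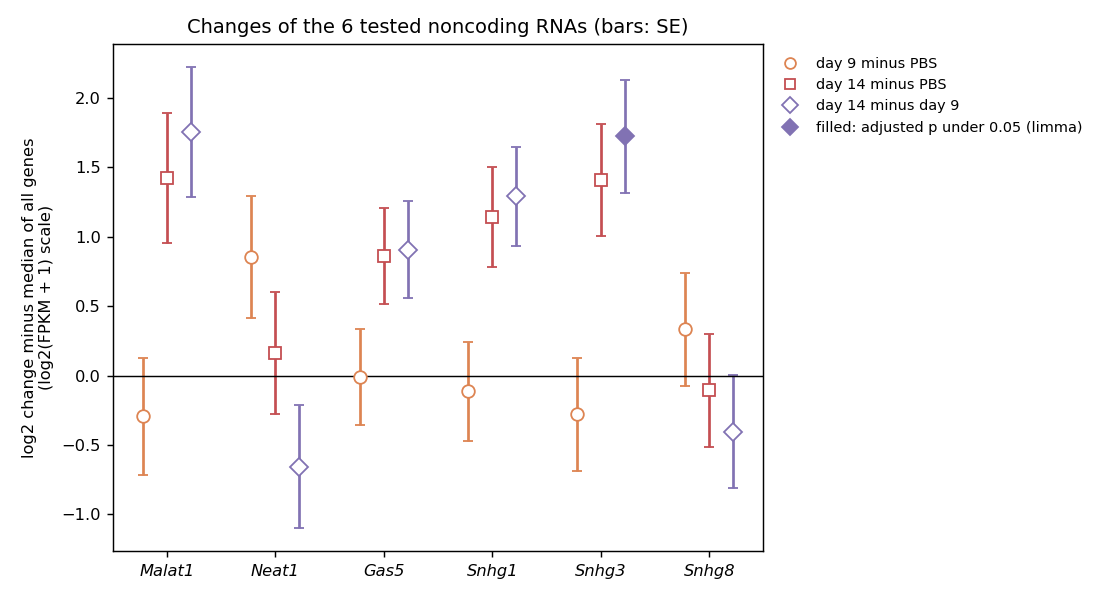
Log2 change relative to the median gene (y axis, log2(FPKM + 1) scale) of the 6 tested RNAs (x axis) in the 3 comparisons; bars are the standard error from limma. At day 14 Malat1, Snhg1 and Snhg3 lay more than 1 above the median gene, Gas5 lay 0.86 to 0.91 above it, Neat1 and Snhg8 lay near or below it, and only Snhg3 against day 9 passed the test.

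Snhg3, host of the H/ACA snoRNAs Snora73a and Snora73b, gave the single call. Its levels with PBS were 23.8, 23.9 and 14.2 FPKM. Day 9 gave 17.7, 23.7 and 11.3 FPKM, and day 14 gave 69.4, 61.7 and 28.7 FPKM. All day 14 libraries were above all others, with replicate 3 the closest to them. The mean was 20.7 ± 5.57 (SD, n = 3) with PBS, 17.6 ± 6.21 at day 9 and 53.3 ± 21.7 at day 14, 3.03 times the day 9 mean. Against day 9 the relative log2 change was 1.72 (SE 0.41, adjusted p = 0.039 by limma), higher in 3 of 3 libraries. Against PBS it was 1.41 (SE 0.41, adjusted p = 0.0629), which missed the threshold, and between day 9 and PBS it was −0.28 (SE 0.41, adjusted p = 0.9999).

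That call depended on the processing. The change of Snhg3 against day 9 was above 0 in 24 of 24 alternatives, from 0.48 to 2.11, and passed in 10 of them, with adjusted p from 0.0231 to 0.513. Of the 9 fits that each left out 1 library, it passed in 2, those without PBS replicate 3 and without ADR_D14 replicate 3. Against PBS, leaving out ADR_D14 replicate 3 raised the change to 1.80 (adjusted p = 0.0255), past the threshold. Without ADR_D9 replicate 3 and ADR_D14 replicate 1, the libraries with signs of other kidney cells, the change against day 9 was 1.19 (adjusted p = 0.139). With the dependence on length and GC content of transcripts taken out of each library, it was 0.48 against day 9 (adjusted p = 0.513) and 0.35 against PBS (adjusted p = 0.616). Snhg3 is short, with a longest GENCODE transcript of 581 bases against a median of 3178 bases for the genes tested. Across 9731 genes the change at day 14 correlated with transcript length at a Spearman rho of −0.37 against day 9 and −0.33 against PBS, so short transcripts had the higher changes as a class, while at day 9 against PBS rho was 0.07. The part that length had in the change of Snhg3 was not tested beyond that fit. In GENCODE, Snhg3 also lies inside Rcc1, the nucleotide exchange factor of Ran, on the same strand. Rcc1 was at 11.03, 2.36 and 1.17 FPKM at day 14, and its change against day 9 was 0.30 (SE 0.60, adjusted p = 0.94). How fragments in shared exons were divided is not given in the sources used here, and the part of shared fragments was not tested.

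**Figure D3:**
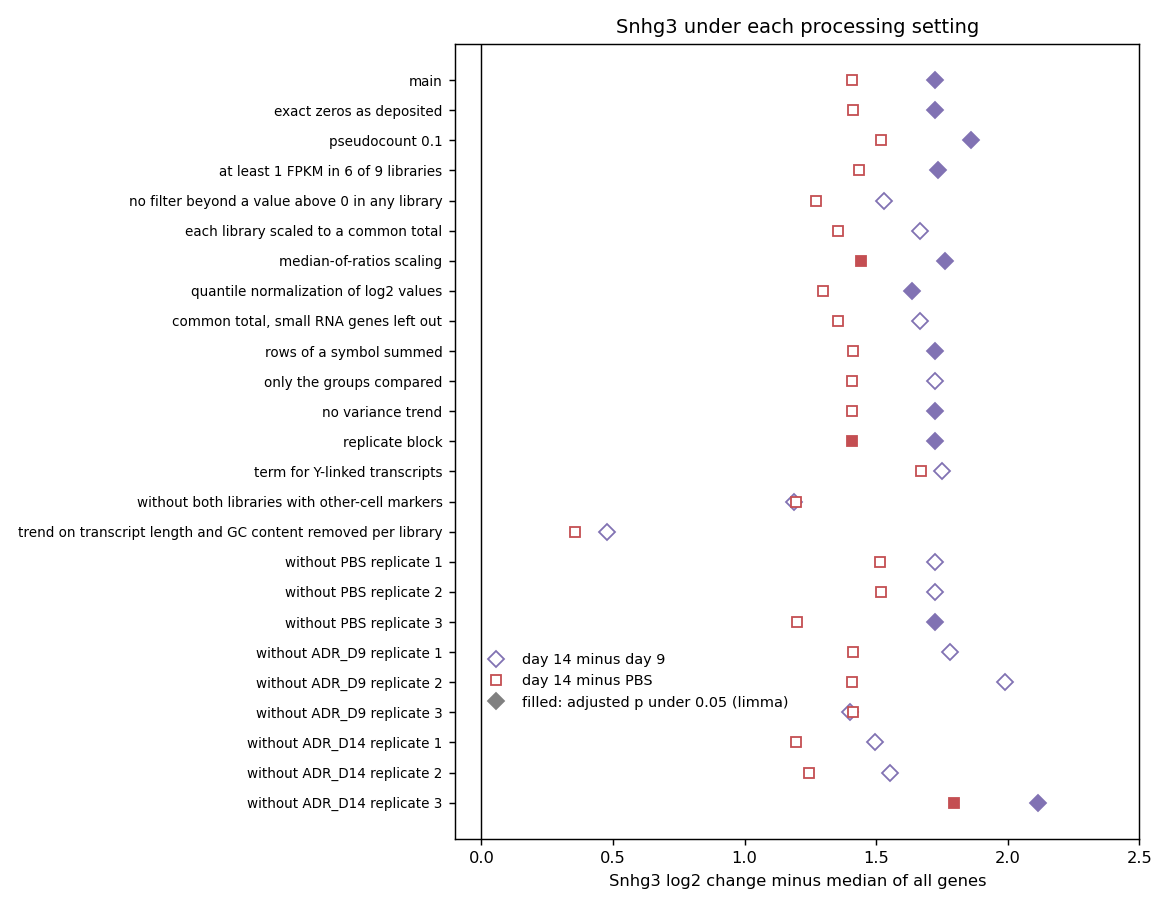
Relative log2 change of Snhg3 (x axis) at day 14 against day 9 and against PBS under the main processing and each of 24 alternatives (y axis); filled symbols passed limma's test. All values are above 0, the lowest pair (0.48 and 0.35) follows the removal of the length and GC trend, and 10 alternatives keep the call against day 9.

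Snhg1, host of 8 annotated snoRNA genes and the most abundant of the hosts here, had a similar course. With PBS its values were 107.8, 122.1 and 95.5 FPKM, and the day 9 libraries had 85.6, 109.7 and 113.5 FPKM. The day 14 libraries were at 294.0, 294.7 and 116.6 FPKM. Replicates 1 and 2 of day 14 were thus far above every other library, and replicate 3 lay within the PBS range. The means were 108.5 ± 13.3, 102.9 ± 15.1 and 235.1 ± 103 FPKM (SD, n = 3). Against day 9 the relative log2 change was 1.29 (SE 0.36, adjusted p = 0.0718 by limma) and against PBS 1.14 (SE 0.36, adjusted p = 0.0875). Without ADR_D14 replicate 3 both passed, at 1.74 (adjusted p = 0.0216) and 1.58 (adjusted p = 0.0174). Across the 9 libraries Snhg1 and Snhg3 had a Pearson r of 0.90 and a Spearman rho of 0.77 on log2(FPKM + 1), the highest r among the pairs of hosts tested. Malat1, which is no host, had a higher r of 0.92 with Snhg3 and one of 0.76 with Snhg1, over 8 libraries. These r values are a description, since the libraries share groups and depth.

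Gas5, host of 10 snoRNA genes and known as a decoy for the glucocorticoid receptor, was at a modest level. Its values were 3.25, 4.47 and 4.63 FPKM with PBS, 3.32, 3.42 and 6.25 FPKM at day 9, and 11.5, 4.92 and 6.86 FPKM at day 14. Day 14 did not overlap PBS but did overlap day 9, where replicate 3 was high. Day 14 averaged 7.77 ± 3.39 FPKM against 4.12 ± 0.75 with PBS. The relative log2 change was 0.86 (SE 0.35, adjusted p = 0.18 by limma) against PBS and 0.91 (SE 0.35, adjusted p = 0.193) against day 9, and it passed in none of the 24 alternatives. The highest day 14 value came from the library with tubule markers. Leaving that library out together with ADR_D9 replicate 3 gave 0.59 (adjusted p = 0.23) against PBS. Gas5 overlaps Zbtb37 on the opposite strand, and Zbtb37 was at most 0.558 FPKM in any library. The part of shared fragments was not tested.

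Snhg8 and Snhg12 did not follow Snhg1 and Snhg3. Snhg8, which carries the single snoRNA Snora24, was at 2.82, 1.98 and 3.16 FPKM with PBS. It was at 2.44, 2.29 and 7.97 FPKM at day 9 and at 1.503, 2.86 and 1.90 FPKM at day 14. Only ADR_D9 replicate 3, a library with signs of several other kidney cells, was high. The relative log2 change was −0.40 (SE 0.41, adjusted p = 0.308 by limma) at day 14 against day 9 and −0.11 (adjusted p = 0.69) against PBS. Without the pair of libraries holding other cells' markers these became 0.18 and 0.05, so the direction turned. Snhg12 ranged from 0.240 to 0.882 FPKM, with group means of 0.582 ± 0.317, 0.590 ± 0.259 and 0.575 ± 0.198 FPKM (SD, n = 3). Those 3 means differ by far less than the spread between replicates.

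Depth can be read from the values themselves for 6 of the 9 RNAs. When each FPKM is multiplied by the library's relative depth, the values of Neat1, H19, Gas5, Snhg3, Snhg8 and Snhg12 are whole multiples of a single step, to within 0.0016 of the whole number, as they would be if a step were 1 counted fragment. No common step was found for Malat1, Meg3 and Snhg1. The search tried fewer than 400 steps for an RNA's lowest nonzero value. A finer step, as abundant RNAs such as Malat1 and Snhg1 may have, could not be found. For Snhg3 the multiples were 173, 160 and 103 with PBS, 93, 141 and 66 at day 9, and 111, 190 and 109 at day 14. The day 14 multiples of Snhg3 thus overlapped those with PBS, and its higher FPKM came with a lower depth. For Gas5 they were 237, 300 and 336 with PBS, 175, 204 and 366 at day 9, and 185, 152 and 262 at day 14. At the low end, Snhg12 rested on 1 to 10 steps, and H19 on 1, 1 and 3 steps in the 3 libraries where it is above 0. A step of Snhg3 was worth 0.150 FPKM at the depth of PBS replicate 2 against 0.0144 for H19, a ratio of steps that would set the length used for Snhg3 at 0.0965 times that of H19 if a step were 1 fragment in both. For Neat1 the same ratio would set the length used at 1.23 times that of H19. The longest GENCODE transcripts have 20771 bases for Neat1 and 2286 for H19. Which Neat1 transcript the row measures was not tested. The step of H19 rests on 3 values, and whether a step is 1 fragment was not tested. The table's own counts are not given, so no counting interval is printed.

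**Figure D4:**
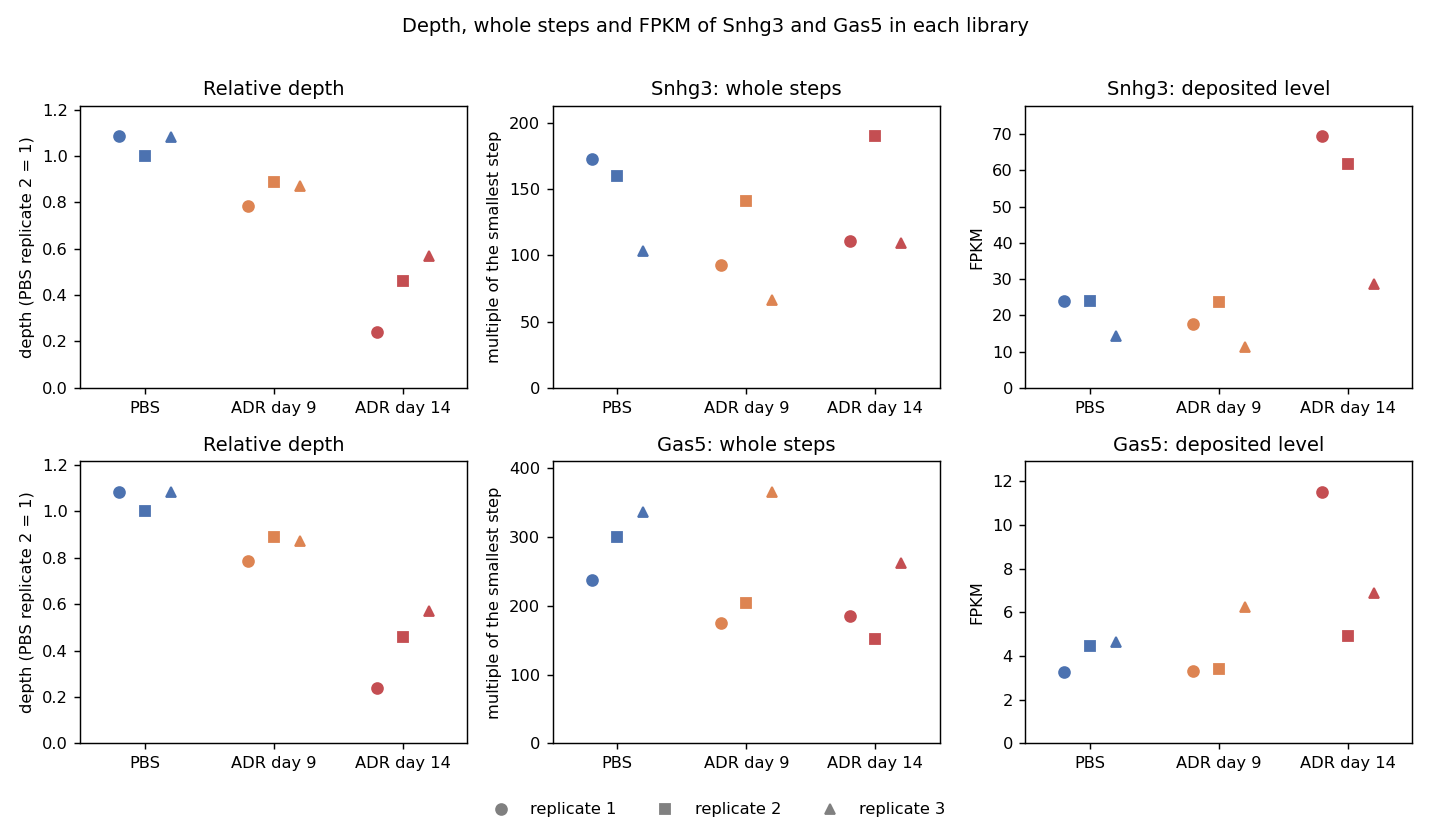
Relative depth (left; PBS replicate 2 is 1), whole multiples of the smallest step (middle) and deposited FPKM (right) of Snhg3 (top) and Gas5 (bottom) in each library, by group. The day 14 libraries have the lowest depth, 0.239 to 0.569, and the multiples of Snhg3 there, 109 to 190, lie within the range of 66 to 173 of the others but for replicate 2.

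Malat1 was by far the most abundant of the 9. The PBS libraries had 4084, 3733 and 3471 FPKM, and the day 9 libraries 4334, 4195 and 1700 FPKM. At day 14 it was at 7812 and 10638 FPKM and is listed at 0 in replicate 3. Those 2 nonzero values exceeded all 6 earlier ones, and the lowest nonzero value was that of ADR_D9 replicate 3. A listed 0 can be a failed estimate, so it entered the fit as missing, which left 2 libraries at day 14. Of 3049 genes whose median was 20 FPKM or more, 16 had such a 0, 12 of them small RNAs. With 2 libraries the day 14 mean was 9225 ± 1998 FPKM (SD, n = 2), 2.45 times that of PBS. The relative log2 change was 1.42 against PBS (SE 0.47, adjusted p = 0.0985 by limma) and 1.75 against day 9 (SE 0.47, adjusted p = 0.0617). Taken as deposited, the 0 turns both directions, to −2.96 (adjusted p = 0.492) and −2.63 (adjusted p = 0.535). Without both libraries holding other cells' markers, which leaves a single day 14 value for Malat1, the changes were 1.67 (adjusted p = 0.0207) and 1.5 (adjusted p = 0.043), with that value assumed to vary like the other groups. Without ADR_D9 replicate 3 alone, the change against PBS was 1.42 and passed (adjusted p = 0.0434).

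Neat1 behaved otherwise. Its levels were 2.59, 2.98 and 4.93 FPKM with PBS, 15.5, 5.39 and 4.15 FPKM at day 9, and 3.13, 4.45 and 2.92 FPKM at day 14. ADR_D9 replicate 1 alone was high, and it was also the library with the highest summed level of 9 red cell markers. That sum was 547.8 FPKM, with 1 of 9 at 0, where it ran from 0.563 to 5.50 FPKM with PBS and from 0.722 to 66.5 FPKM at day 14. The other day 9 libraries had 0.350 and 248.2 FPKM, the latter in replicate 3, where Neat1 was at 4.15 FPKM. The part of those cells in the Neat1 level was not tested. The relative log2 change was 0.86 (SE 0.44, adjusted p = 0.9999 by limma) at day 9 against PBS, 0.16 (adjusted p = 0.978) at day 14 against PBS and −0.66 (adjusted p = 0.194) at day 14 against day 9. Leaving out 1 library gave ranges of 0.37 to 1.21, 0.0039 to 0.41 and −1.04 to −0.127 in that order. Malat1 and Neat1, though neighbours in the genome, had a Pearson r of −0.04 over 8 libraries.

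Meg3 was low, at most 0.412 FPKM, in 7 libraries. It was at 0.0554, 0.165 and 0.256 FPKM with PBS. Day 9 gave 0.412, 0 and 11.9 FPKM, and day 14 gave 3.39, 0.00449 and 0.0358 FPKM. The pair of libraries above 1 FPKM, ADR_D9 replicate 3 and ADR_D14 replicate 1, was the pair with signs of other kidney cells. Meg3 reached 1 FPKM in 2 libraries only and was not tested. Dlk1, its paternally read neighbour, was at 10.6 FPKM in ADR_D9 replicate 3 and at most 0.646 FPKM elsewhere, 0 in ADR_D14 replicate 1 included. Rian, a maternally read RNA of the same cluster, did not exceed 0.690 FPKM, and Mirg was at or near 0 throughout. Endothelial markers other than Plat, whose level with PBS made up nearly all of their sum, summed to 5.50 to 15.2 FPKM with PBS, 8.43 to 4001 FPKM at day 9 and 1.69 to 1193 FPKM at day 14. The highest sums of day 9 and day 14 were those of that pair, in which none of these markers was at 0. Summed mesangial markers ran from 52.6 to 139.3, from 48.8 to 462.8 and from 38.2 to 46.8 FPKM, with 0 and 5 of 15 at 0 in the pair. The part of other cells in the Meg3 signal was not tested.

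H19 was all but absent. It was above 0 in PBS replicate 1, ADR_D9 replicate 3 and ADR_D14 replicate 3, at 0.0133, 0.0165 and 0.0761 FPKM, and is listed at 0 in the other 6 libraries. These values were too low to compare groups. Igf2, its paternally read neighbour, stood at 6.55 FPKM in ADR_D14 replicate 1 and at most 0.406 FPKM elsewhere. H19 was at 0 in that library, which had the lowest relative depth (0.239). Since H19 reached at most 3 steps in any library, a 0 there cannot show that it was absent.

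**Figure D5:**
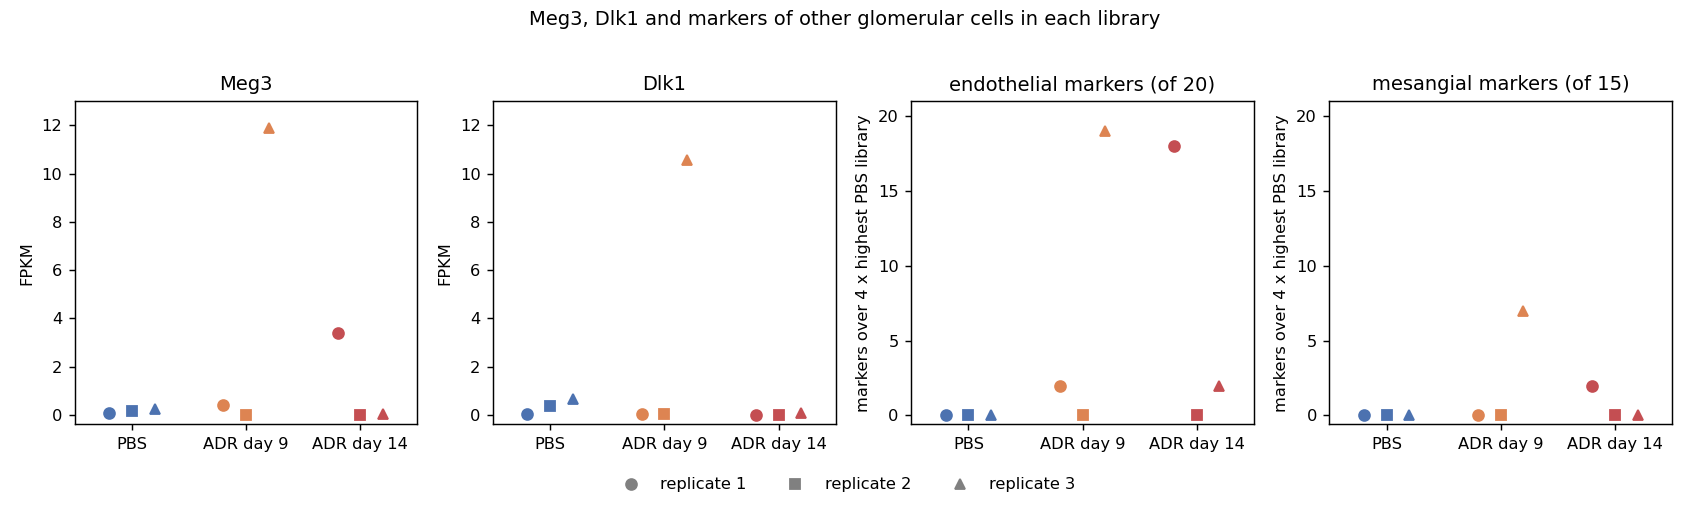
FPKM of Meg3 and of Dlk1, and the number of endothelial (of 20) and mesangial (of 15) markers above 4 times the highest PBS library (y axes), in each library by group. Meg3 exceeds 1 FPKM only in ADR_D9 replicate 3 and ADR_D14 replicate 1, the libraries with 19 and 18 endothelial markers above that level, while Dlk1 does so only in the first.

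The proteins with which these RNAs work were read from lists. Of 8 tested core proteins of snoRNA particles, none passed at day 14 against PBS, but all 8 were above the median gene and their median relative log2 change was 0.85. Against day 9 the median was 0.96, and 1 rose, Nop58, a core protein of methylation-guide particles, by 1.47 (SE 0.31, adjusted p = 0.0293 by limma). Nop58 was at 5.52, 2.79 and 2.65 FPKM with PBS, 2.05, 3.20 and 1.98 FPKM at day 9, and 5.67, 8.32 and 7.32 FPKM at day 14. All of the 8 but Nop58 were highest in ADR_D14 replicate 1, the library with the lowest depth and with tubule markers. The part that this library or transcript length had in these changes was not tested. At day 14 against PBS, Fbl (fibrillarin, the methyltransferase) was at 0.88 (adjusted p = 0.178), Nop56 at 0.81 (adjusted p = 0.115) and Dkc1 (dyskerin, the pseudouridine synthase) at 0.32 (adjusted p = 0.674). Those counts, 0 and 1 of 8, stand beside 6.35% and 5.74% of all genes that passed as higher in these comparisons, and the next ones are to be read against the same shares. Of 10 assembly factors, 1 rose in both day 14 comparisons, Znhit6, by 1.06 (adjusted p = 0.0262) against PBS and 1.05 (adjusted p = 0.037) against day 9. Znhit6 lay between 11.6 and 15.2 FPKM in the 6 earlier libraries and between 20.5 and 29.8 FPKM at day 14.

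Other host RNAs did not pass. Of 17 listed, 9 were in the table and 5 were tested (Snhg5, Snhg7, Snhg9, Snhg10 and Dancr), with a median relative log2 change of 0.45 at day 14 against PBS and 0.41 against day 9. Snhg5, the most abundant of them, was at 95.8 FPKM in ADR_D9 replicate 3 and between 13.8 and 33.8 FPKM elsewhere, so it shared its high library with Snhg8. Among 15 tested 5′ TOP messenger RNAs outside the ribosomal proteins, 1 rose and 2 fell at day 14 against PBS. Eif3e, a subunit of the initiation factor eIF3, rose by 1.21 (adjusted p = 0.046 by limma), while Nap1l1, a histone chaperone, and Eef2, an elongation factor, fell by 1.34 (adjusted p = 0.0263) and by 0.78 (adjusted p = 0.0382). Of 12 tested factors of nonsense-mediated decay, none rose and 2 fell against PBS, Smg9 by 1.20 (adjusted p = 0.0165) and Smg8 by 0.94 (adjusted p = 0.0494). Both are regulators of the kinase Smg1. Counts of 3 of 15 and 2 of 12 called are near the 17.1% of all genes that passed in this comparison. The share of all genes that passed as lower was 10.7%. Upf1, the helicase of that pathway, did not pass, at −0.08 (adjusted p = 0.764). Its levels were 3.37, 1.59 and 1.45 FPKM with PBS, 5.96, 4.66 and 8.75 FPKM at day 9, and 4.51, 0.639 and 0.915 FPKM at day 14.

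Among speckle and paraspeckle proteins, most did not pass, and those that did were both higher and lower. Of 17 tested nuclear speckle proteins, 2 rose and 3 fell at day 14 against PBS. Srrm2, a scaffold of speckles, rose by 1.73 (SE 0.37, adjusted p = 0.0247 by limma). It lay between 5.94 and 6.93 FPKM with PBS and at 29.0, 26.6 and 12.9 FPKM at day 14. The splicing factor Srsf5 rose by 1.27 (adjusted p = 0.019), whereas the related Srsf6 fell by 1.29 (adjusted p = 0.0262) and Sf3b1 by 1.05 (adjusted p = 0.0235). Of 18 tested paraspeckle proteins, 1 rose (Hnrnph3, by 1.25, adjusted p = 0.0401) and 2 fell (Cpsf7 by 0.94, adjusted p = 0.0332, and Matr3 by 0.70, adjusted p = 0.0344). The core proteins did not pass, with Sfpq at 0.40 (adjusted p = 0.727), Nono at 0.33 (adjusted p = 0.697) and Pspc1 at 0.08 (adjusted p = 0.942). Of 8 tested genes that flank Malat1 and Neat1 or process their ends, none passed in any comparison, and their median was −0.30 at day 14 against PBS. For scale, the median of all genes is 0 and 17.1% of them passed in that comparison.

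Among 6 tested long noncoding RNAs outside the 9, Peg13 alone passed. Peg13 is an imprinted RNA that lies within Trappc9. It was at 10.4, 19.3 and 31.1 FPKM with PBS, 14.7, 15.7 and 18.0 FPKM at day 9, and 1.80, 2.52 and 0.839 FPKM at day 14. All day 14 libraries were below all others, opposite to Snhg3. It fell by 2.75 (SE 0.40, adjusted p = 0.00963 by limma) against PBS and by 2.48 (SE 0.40, adjusted p = 0.00969) against day 9. Trappc9 also fell, by 1.58 (adjusted p = 0.0247) and by 1.62 (adjusted p = 0.021), and how fragments of the shared span were divided is not known here. Of 8 tested genes of the imprinted network to which Meg3 and H19 belong, 1 fell against PBS, the zinc finger gene Plagl1, by 2.32 (adjusted p = 0.0265), and none passed against day 9.

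For each tested RNA, the 3 genes with the most similar pattern were taken by Pearson r of log2(FPKM + 1), over 9 libraries (8 for Malat1) and about 6295 genes with a mean of at least 5 FPKM. Being the highest of so many, these r values are large by selection, and they carry no p. Malat1 was most like Siva1 (0.99), Tmsb4x (0.99) and Polr2l (0.98). These genes differed in ADR_D14 replicate 3, where Malat1 is listed at 0. Siva1 was there at 136 FPKM, against 11.96 to 92.4 FPKM elsewhere. Tmsb4x was at 7290 FPKM, within its PBS range of 6775 to 9040 FPKM. Polr2l was at 160.6 FPKM, above its PBS range of 101.6 to 135.4 FPKM. For Tmsb4x and Polr2l these were the lowest day 14 values. Snhg3 was most like 1700102H20Rik (0.99), U2af1 (0.97) and Gnpda2 (0.97), and Snhg1 was most like Snrpb2 (0.96), 2410006H16Rik (0.95) and Psme1 (0.95). Gas5 was closest to Cdip1 (0.97), Mrpl38 (0.96) and Cks2 (0.95), each highest in ADR_D14 replicate 1. Snhg8 was closest to Maged2 (0.92), Twf2 (0.90) and Skiv2l2 (0.89), all highest in ADR_D9 replicate 3. Neat1 was closest to Syne1 (0.94), Ddx26b (0.90) and Sh3bp5l (0.90), all highest in ADR_D9 replicate 1. In each of these 3 cases that was also the library in which Gas5, Snhg8 or Neat1 itself was highest.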

How the data were processed

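The authors deposited RNA levels of 9 podocyte libraries as FPKM, 23813 rows for 23309 symbols. Build mm9, Cufflinks and Bowtie 0.12.7 are listed, with no role for any, per the submitters' processing notes. Gene models, strand setting and the handling of reads with several matches were not given in the sources used, so genes that overlap or share sequence are uncertain. FPKM depends on the length assigned to a transcript and on the library's total.

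For 260 symbols on several rows, the one with the highest mean was used. An exact 0 in a gene with a median of at least 20 FPKM entered as missing (32 zeros). On log2(FPKM + 1), limma 3.58.1 (R 4.3.3; variance trend on) was fitted to the 9788 genes that reached 1 FPKM in 3 or more libraries, leaving 13521 untested. All 9 libraries entered, with group as sole term. Tests were two-sided. Other steps used Python 3.11.15 and pandas 2.3.3. The fit was tested on simulated data with known changes. Same-numbered libraries were not treated as pairs: 1 of 9 correlations of their deviations was above 0.1. Depth was estimated from the most frequent ratio between libraries at values under 0.3 FPKM.

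The genes and the 21 gene lists were chosen with earlier results of these data known. Named genes were the 9 RNAs, up to 4 listed genes per list and comparison that passed, a set given by name, and the 3 genes most like each RNA. Trappc9, Rcc1 and Zbtb37 were named for their position, and Snhg5, Mir5117 and Plat after their values were seen. Alternatives were other pseudocounts, filters, scalings, variance models, blocks and libraries left out. GENCODE M21 and the RefSeq windows are of GRCm38, not mm9, and gave names, lengths and sequences with their own coordinates only.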

Additional observations from a re-analysis of the deposited data

Results flagged for a closer look

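Snhg3 was picked out because its change after ADR differed between the time points. The 3 libraries at day 14 were all above the 3 at day 9, by a relative log2 change of 1.72 (SE 0.41, adjusted p = 0.039 by limma), while day 9 and PBS differed by −0.28 (adjusted p = 0.9999). Both time points are set against the same PBS libraries, and the day 14 libraries had the lowest depth. Groups of 3 libraries are too small for a search for single outlying samples.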

How the results depend on the processing

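Over 24 alternatives, the 6 tested RNAs gave 0 calls at day 9 against PBS in each. At day 14 against day 9, where Snhg3 gave 1 call, there were 0 without the filter, with each library scaled to a common total (small RNA genes in or left out), with only the groups compared, with a term for Y-linked transcripts and with the length and GC trend removed; there were 2 with median-of-ratios scaling (Snhg1 added) and with no variance trend (Malat1 added). Fits that left out 1 library gave 0 to 2. At day 14 against PBS, with 0 calls, there was 1 with median-of-ratios scaling, 1 with the replicate number as a block (Snhg3, adjusted p = 0.0252 by limma) and 1 without both libraries holding other cells' markers (Malat1). Leaving out 1 library gave 0 to 2, the 2 being Snhg1 and Snhg3 without ADR_D14 replicate 3.

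Over all genes, 1543 passed at day 14 against day 9, but 883 without the filter, 271 with only the groups compared, 453 with the length and GC trend removed, and 398 to 2126 when 1 library was left out, with 398 without ADR_D9 replicate 3, 503 without ADR_D9 replicate 1, 630 without ADR_D9 replicate 2 and 732 without PBS replicate 2. Against PBS, 1674 passed, but 1000, 484 and 599 in those 3 settings, 0 with the Y-linked term (2284 before adjustment, at p under 0.05), and 0 to 1895 when 1 library was left out, with 0 without PBS replicate 2 (2348 before adjustment), 171 without PBS replicate 3 and 1089 without ADR_D9 replicate 2. At day 9 against PBS, 0 passed, with 2 without the filter, 1 with only the groups compared and 0 to 1 when 1 library was left out. Common-total scaling gave 415 higher and 1679 lower against PBS, and median-of-ratios scaling 861 and 766, where the deposited values gave 622 and 1052. Against day 9 the splits were 395 and 1839, 827 and 647, and 562 and 981. Quantile normalization gave 713 and 765 against PBS and 684 and 540 against day 9. The block on replicate number gave 1316 and 1203 genes in the 2 day 14 comparisons. The single best correlation of a library with one of another group was with its own number for 2 of 9 libraries. The cause of these shifts was not tested, beyond fewer libraries or more genes in a fit by its construction.

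Directions turned for changes that had not passed. Malat1 at day 14 became −2.96 and −2.63 with its 0 as deposited. At day 9 against PBS, Gas5 became 0.0135 without the filter and 0.0462 with the length and GC trend removed, and Malat1 0.14 with the Y-linked term. Without both libraries holding other cells' markers, Malat1 became 0.17, Snhg3 0.0092 and Snhg8 −0.12 at day 9, and Snhg8 0.0547 and 0.18 at day 14 against PBS and day 9. Leaving out 1 library gave ranges at day 9 of −0.23 to 0.14 for Gas5, −0.53 to 0.17 for Malat1, −0.22 to 0.0327 for Snhg1, −0.54 to 0.0092 for Snhg3 and −0.12 to 0.57 for Snhg8. For Snhg8 at day 14 they were −0.29 to 0.0544 against PBS and −0.63 to 0.0129 against day 9. Low depth at day 14 limits what can be said of Snhg12 and H19, whose values rest on at most 10 steps.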
